A study of Bos taurus with 6 samples.

Results

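The glycolysis and hypoxia response genes described here are 35 genes chosen by name: 21 genes of glucose uptake, glycolysis and the fate of pyruvate, and 14 genes of the hypoxia inducible factor (HIF) pathway. All 35 had counts among the 23704 genes of the files, and all 35 were among the 14639 genes tested. RNA was sequenced from pools of bovine primordial follicles (PMF), the smallest ovarian follicles, in which an oocyte is enclosed by flat pregranulosa cells. The 3 T0 libraries came from PMF retrieved after collection, and by the study's methods such follicles rested in medium with insulin and FSH before lysis. The 3 T16 libraries came from PMF retrieved after 16 h of culture, whose medium and oxygen are not given in the sources used here. All PMF were isolated by mechanical means, by the study's methods from abattoir ovaries of young Holstein Friesian dairy cows. The sources call the pools biological replicates but do not say which animals entered each, so p-values measure the spread between pools.

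Glycolysis splits glucose into pyruvate in the cytosol, and lactate dehydrogenase or the mitochondrion then takes the pyruvate. HIF is a pair of subunits whose alpha subunit is marked for destruction by oxygen-dependent prolyl hydroxylases. When oxygen is low the alpha subunit accumulates and raises transcription of many glycolytic enzymes, glucose transporters and mitophagy receptors, so transcripts of both gene groups are often read side by side. The oocyte of a small follicle is known for its poor use of glucose, whereas the surrounding granulosa lineage carries out glycolysis.

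The libraries held 22174653 to 36703016 estimated counts, and 89.1% to 90.3% of these lay on transcripts matched to a gene symbol. None of the 12 oocyte markers and none of the 11 pregranulosa markers was at 0 in any library. Their proportions were uneven, with a summed level of the oocyte markers from 78.2 to 2724 TPM (a level scaled for transcript length and for the library total) and of the pregranulosa markers from 982 to 9412 TPM. Within each group 1 library was lowest in oocyte markers, T0 replicate 1 with 485 TPM and T16 replicate 2 with 78.2 TPM. These 2 are called oocyte-poor below, and for many of the genes described, values without both are given. T16 replicate 3, with 721 TPM, was also below T16 replicate 1, with 2000 TPM, and was kept in those values.

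No member of the list passed an FDR (adjusted p) of 0.05 between T16 and T0 in edgeR, the main test. The background for that count was low, since 6 of the 14639 tested genes, or 0.041%, passed in either direction. At an unadjusted p below 0.05, edgeR placed 4 members lower at T16 (BNIP3L, ADM, MXI1 and BNIP3) and 1 higher (KDM3A). Over all tested genes 5.14% were lower and 8.61% higher at that level. DESeq2, which called 2.96% of all tested genes lower at T16, called 2 members lower, BNIP3L and ADM. With limma on log2(TPM + 1), 0.246% of all genes were called lower, among them 1 member, BNIP3L. The members lower at T16 by any of these tools were HIF targets outside glycolysis, and no glycolysis gene was among them.

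The median log2 fold change over the 35 genes was -0.04, beside -0.08 over all genes tested, with 16 genes above 0 and 19 below. It was -0.04 for the 21 glycolysis genes and -0.13 for the 14 HIF pathway genes. In CPM (counts scaled to the library size by TMM, with no scaling for length), every T16 library was below every T0 library for 5 members (BNIP3, BNIP3L, ADM, MXI1 and ANKRD37) and above it for 0 members. Of all tested genes, 10.6% lay below in this way and 13.2% lay above. Over the whole list the share below, 14.3%, was close to that background. The 5 genes all belonged to the 10 HIF targets outside glycolysis.

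**Figure D1:**
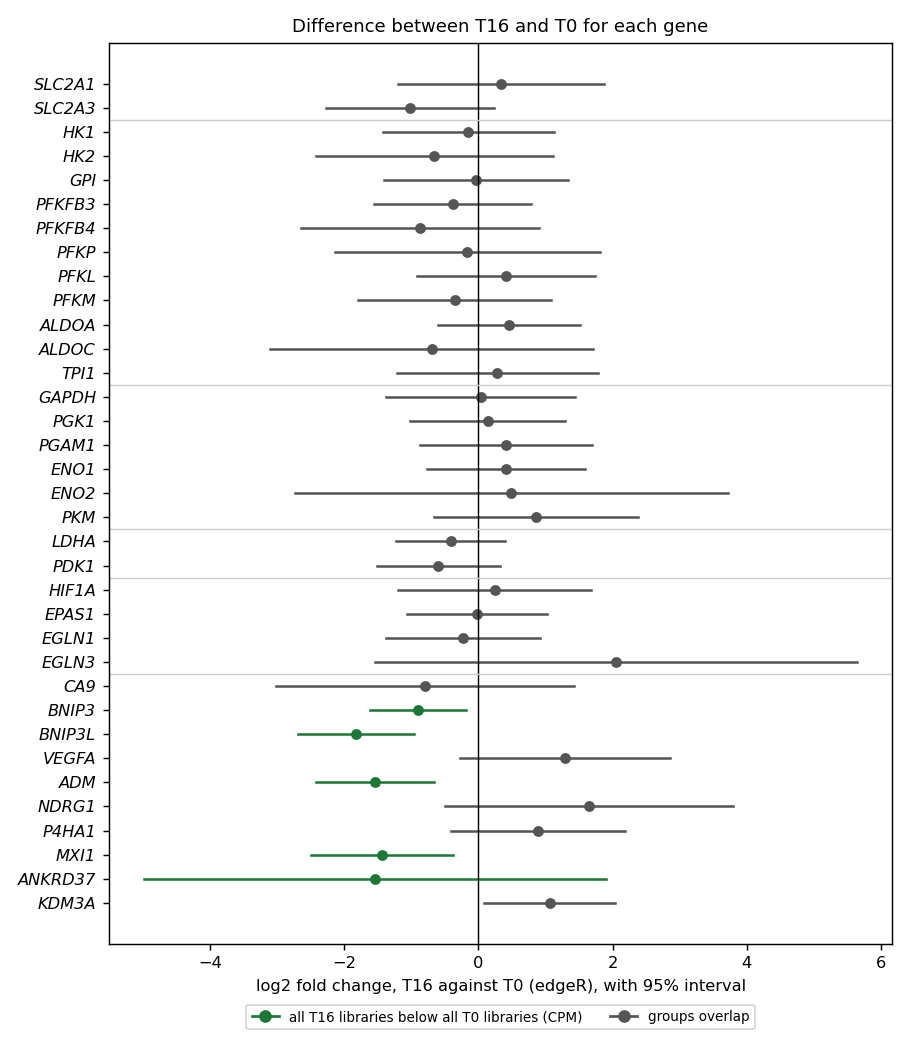
Log2 fold change of each of the 35 genes between T16 and T0 (x axis, edgeR, negative means lower at T16), with the gene on the y axis, bars for the 95% interval and grey lines between the functional groups. Green marks the 5 genes whose T16 libraries were all below the T0 libraries in CPM; the intervals of BNIP3L, ADM, MXI1 and BNIP3 lie below 0, that of KDM3A lies above 0, and those of the 21 glycolysis genes all include 0.

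BNIP3L and BNIP3 encode related receptors of the outer mitochondrial membrane that recruit the autophagy machinery. BNIP3L had 489.5, 463.5 and 454.6 TPM in T0 replicates 1 to 3 and 154.0, 156.8 and 95.1 TPM in T16 replicates 1 to 3. In TPM the T0 pools lay close together and every T16 pool held less than the lowest of them. In CPM the T0 pools were less alike, at 655, 471 and 426 against 135, 196 and 109 at T16, and the groups still did not overlap. The fitted level was 3.53-fold higher at T0, a log2 fold change of -1.82 (SE 0.37, 95% interval -2.69 to -0.95), with an adjusted p of 0.107 in edgeR, 8.2e-05 in DESeq2 and 0.048 in limma. In a bulk pool, fewer cells that use a gene and less of its RNA per cell cannot be told apart, for this and every gene below.

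BNIP3L was as far apart without the oocyte-poor libraries. Leaving out T0 replicate 1 and T16 replicate 2 together gave a log2 fold change of -1.89 (SE 0.34, adjusted p 0.118), and leaving out 1 library at a time gave values from -2.09 to -1.62. Of its 2 transcripts the shorter, of 1313 bases, held 66.2% to 91.1% of the TPM in each library and led in all 6. The transcript that led at T0 therefore also led at T16.

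BNIP3 had 135.7, 198.1 and 167.3 TPM at T0 and 99.7, 66.6 and 80.0 TPM at T16. The groups did not overlap, though T16 replicate 1 came within a smaller distance of T0 replicate 1 than was seen for BNIP3L. Its log2 fold change was -0.90 (SE 0.31, adjusted p 0.252), and -0.79 without the oocyte-poor libraries (adjusted p 0.330). BNIP3L was the more abundant receptor in every library, at 1.19 to 3.61 times the TPM of BNIP3.

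ADM encodes adrenomedullin, a secreted peptide that dilates vessels. It had 570.8, 523.8 and 594.9 TPM at T0 against 132.5, 266.0 and 146.0 TPM at T16. The highest T16 pool, replicate 2, stayed below each T0 pool. The level was 2.90-fold higher at T0, with a log2 fold change of -1.54 (SE 0.37, 95% interval -2.41 to -0.66) and an adjusted p of 0.138 in edgeR, 0.0022 in DESeq2 and 0.061 in limma. Without the oocyte-poor libraries the log2 fold change was -1.75 (adjusted p 0.125), and with 1 library left out at a time it ran from -1.85 to -1.40. ADM and BNIP3L were ranked 241 and 319 among all genes by mean TPM at T0, and 1150 and 1546 at T16.

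MXI1 encodes a MAX-binding repressor that opposes MYC. It had 29.5, 60.7 and 61.7 TPM at T0 and 30.3, 11.6 and 10.7 TPM at T16. The groups were apart in CPM, where T0 replicate 1 had 74.0 and T16 replicate 1 had 63.3, but these same libraries crossed in TPM. The log2 fold change was -1.43 (SE 0.45, adjusted p 0.217), with -1.43 without the oocyte-poor libraries. Its 3 transcripts traded places between libraries, the first holding 11.2% to 81.7% of the TPM, so no single isoform stood behind the gene value.

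ANKRD37, an ankyrin repeat protein gene known as a direct HIF target, was scarce. It had 9.63, 18.8 and 11.4 TPM at T0 and 6.37, 0 and 5.57 TPM at T16. The 0 count of T16 replicate 2 allows up to 0.140 CPM from counting alone. Its groups did not overlap, but the log2 fold change of -1.54 had an SE of 1.47 and an interval from -4.98 to 1.90, and it was -1.08 without the oocyte-poor libraries.

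The remaining HIF targets did not share this pattern. KDM3A, a histone lysine demethylase gene, had 17.7, 16.4 and 17.3 TPM at T0 and 53.2, 19.0 and 28.5 TPM at T16. All T16 pools were above all T0 pools in TPM, while in CPM T16 replicate 2, at 58.6, lay below T0 replicate 1, at 61.3. The log2 fold change was 1.06 (SE 0.42, adjusted p 0.317), and it was 1.48 without the oocyte-poor libraries (adjusted p 0.157). The gene value sums 3 matched transcripts of the 7 in the RefSeq table. In all, 14 members, PKM (2 of 5) and ALDOA (3 of 6) among them, had fewer transcripts in the files than in that table, so their sums may miss isoforms.

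VEGFA, the main vascular growth factor gene, ranged from 5.72 to 28.3 TPM at T0 and from 20.3 to 53.0 TPM at T16. The groups overlapped because T0 replicate 3 exceeded T16 replicates 2 and 3, and the log2 fold change of 1.29 had an interval from -0.28 to 2.86. Dropping T16 replicate 1 brought it to 0.66, and dropping T0 replicate 3 to 2.20. NDRG1, a stress-responsive gene, ranged from 6.38 to 30.4 TPM at T0 and from 13.1 to 78.7 TPM at T16, with a log2 fold change of 1.65 (SE 0.91, adjusted p 0.495). Single libraries moved it, to 0.71 without T16 replicate 3 and 2.85 without T0 replicate 1, and it was 2.99 without both oocyte-poor libraries. P4HA1, the catalytic subunit of collagen prolyl hydroxylase, ranged from 9.54 to 42.4 TPM and from 33.7 to 58.7 TPM, with a log2 fold change of 0.89, or 0.42 without both oocyte-poor libraries. Its value rests on 1 transcript matched here of the 8 in the RefSeq table. CA9, a membrane carbonic anhydrase gene, ranged from 4.44 to 30.3 TPM at T0 and from 1.45 to 18.3 TPM at T16, lowest within each group in the oocyte-poor library. Its log2 fold change of -0.79 became -1.81 when T16 replicate 1 was dropped and -0.27 when T0 replicate 3 was.

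**Figure D2:**
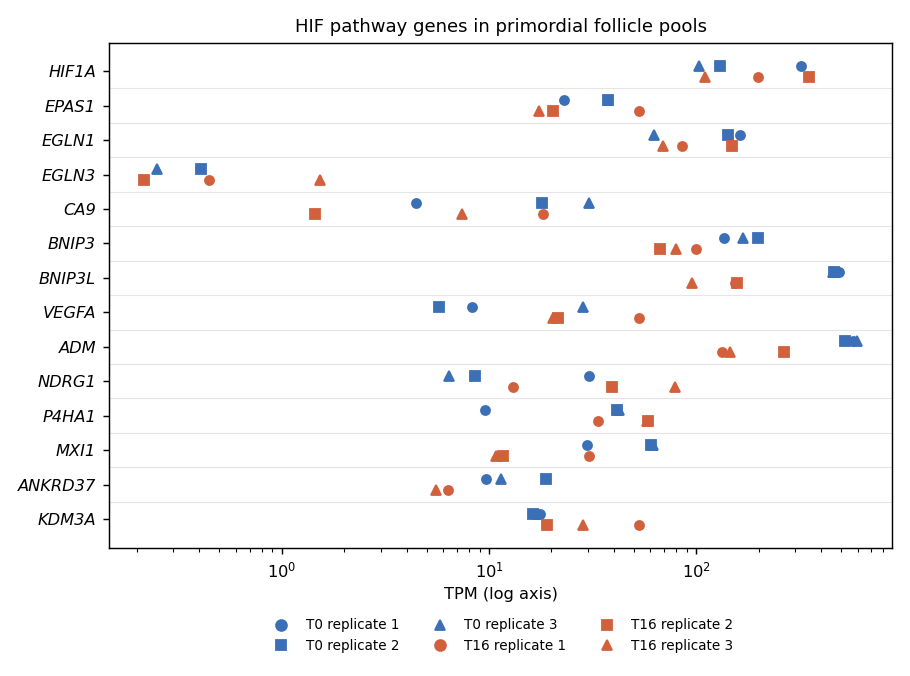
TPM (x axis, log axis) of the 14 HIF pathway genes (y axis) in each library, with blue for T0, red for T16 and the marker shape for the replicate number. BNIP3, BNIP3L, ADM and ANKRD37 show all red points left of all blue points and KDM3A all red points right of them; EGLN3 in T0 replicate 1 and ANKRD37 in T16 replicate 2 are at 0 and not drawn.

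Summed over the 10 targets outside glycolysis, the level was 1305, 1355 and 1415 TPM at T0 and 594, 641 and 530 TPM at T16. The T0 sums were alike and every T16 sum was lower. BNIP3L, ADM and BNIP3 together made up 60.6% to 91.6% of this sum and held 1196, 1185 and 1217 TPM at T0 against 386, 489 and 321 TPM at T16. The other 7 targets summed to 109, 170 and 198 TPM at T0 and 208, 152 and 209 TPM at T16, and these groups overlapped. The difference in the sum thus lay in 3 abundant genes. In CPM the 3 genes summed to 1348, 1036 and 1021 at T0 and 312, 486 and 336 at T16, so on that scale the T0 pools were less alike, with the oocyte-poor replicate 1 highest, and the groups still did not overlap.

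Markers of other cells were uneven too. Summed smooth muscle and pericyte markers (8 genes) were 447, 336 and 115 TPM at T0 and 31.9, 113 and 61.6 TPM at T16, and 2 of their 7 tested genes, ACTA2 and MYH11, did not overlap. Of 11 pregranulosa markers, FOXL2 and WNT6 lay below without overlap and FST lay above, and of 8 stroma markers DCN lay below. ESAM of the endothelial and CD68 of the immune markers lay above without overlap. Stroma markers summed to 1068 to 2443 TPM at T0 and 274 to 1656 TPM at T16, endothelial markers (9 genes) to 22.6 to 394 TPM and 32.8 to 53.7 TPM, immune markers (9 genes) to 8.31 to 46.5 TPM and 2.82 to 53.9 TPM, and erythrocyte markers (6 genes) to 8.90 to 20.4 TPM and 5.37 to 60.4 TPM. With the oocyte marker level as a covariate in edgeR, added after the values were seen, BNIP3L had a log2 fold change of -2.05 (adjusted p 0.054). ADM had -1.88 in that fit (adjusted p 0.058). Beyond this, the part of these cells, and of the uneven oocyte and pregranulosa content, in the lower BNIP3L and ADM was not tested.

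The regulators of the pathway did not separate the groups. HIF1A, the alpha subunit that oxygen controls chiefly at the protein level, had 320, 131 and 103 TPM at T0 and 199, 349 and 110 TPM at T16. The spread within each group was wider than the difference between them, with a log2 fold change of 0.24 and an interval from -1.20 to 1.68. EPAS1, the alternative alpha subunit also called HIF-2 alpha, had 17.3 to 52.8 TPM and a log2 fold change of -0.03. HIF1A exceeded EPAS1 by 2.74 to 17.1 times in TPM, most in T16 replicate 2 and T0 replicate 1. EGLN1, the main oxygen-sensing prolyl hydroxylase, had 62.2 to 163 TPM and a log2 fold change of -0.23 (interval -1.38 to 0.92). EGLN3, an inducible prolyl hydroxylase and itself a HIF target, was close to its detection limit, with 0, 15 and 7 counts at T0 and 14, 6 and 72 counts at T16. Its log2 fold change of 2.05 had an SE of 1.53.

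Glycolysis was carried by abundant transcripts. GAPDH, which oxidises glyceraldehyde phosphate, had 3444, 2111 and 1671 TPM at T0 and 1008, 3182 and 2704 TPM at T16. The lowest and the highest library of the series were T16 replicate 1 and T0 replicate 1, and the CPM of these differed 3.95-fold. GAPDH was ranked 14 at T0 and 19 at T16 by mean TPM, with a log2 fold change of 0.03 (interval -1.37 to 1.43). It is widely used as a reference gene, and its levels in these pools spanned that range without a separation of T0 and T16.

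PKM, the pyruvate kinase gene of the last step, had 2351, 1007 and 655 TPM at T0 and 1569, 3289 and 2237 TPM at T16. T0 replicate 1 exceeded T16 replicates 1 and 3, so the groups overlapped. The log2 fold change was 0.86 (SE 0.65, interval -0.66 to 2.38, adjusted p 0.637), and it was 1.48 without the oocyte-poor libraries (adjusted p 0.223), with a range of 0.52 to 1.72 when each library was dropped in turn. A single transcript held 91.6% to 98.2% of the PKM level in each library. Relative to GAPDH in the same library, PKM was at 0.68, 0.48 and 0.39 times its TPM at T0 and at 1.56, 1.03 and 0.83 times at T16, so this ratio did not overlap between the groups. The ratio was examined after the values were seen and is given with no test. On the same scale BNIP3L was at 0.142, 0.219 and 0.272 times the TPM of GAPDH at T0 and at 0.153, 0.0493 and 0.0352 times at T16, and ADM at 0.166, 0.248 and 0.356 and at 0.131, 0.0836 and 0.0540 times. Relative to GAPDH, whose own level was low in T16 replicate 1, the groups overlapped for BNIP3L and not for ADM.

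ENO1, the main enolase gene, had 1857, 1098 and 818 TPM at T0 and 1196, 2059 and 1539 TPM at T16. The groups overlapped, with a log2 fold change of 0.41 (interval -0.76 to 1.59). ENO1 held 64.5 to 1001 times the TPM of ENO2, the neuronal enolase. ENO2 had its highest levels, 19.3 and 31.9 TPM, in the oocyte-poor T0 replicate 1 and T16 replicate 2, and 1.54 to 3.00 TPM in the other 4 libraries.

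In all, the 6 genes from GAPDH to PKM had log2 fold changes above 0, with a median of 0.41, and the adjusted p closest to the threshold was 0.637, that of PKM. PGK1 and PGAM1, the phosphoglycerate kinase and mutase, had 320 to 773 and 460 to 1023 TPM. For GAPDH, PGK1 and ENO2 the direction is not fixed. GAPDH turned below 0 under DESeq2 size factors (-0.01), and GAPDH and PGK1 turned when single libraries were left out. ENO2 turned to -1.92 without T16 replicate 2.

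The 11 genes of upper glycolysis, from hexokinase to triose phosphate isomerase, had 3 log2 fold changes above 0 and 8 below, with a median of -0.17. TPI1 (triose phosphate isomerase), GPI (glucose phosphate isomerase) and ALDOA (aldolase A) were the most abundant, with 323 to 1100, 182 to 643 and 154 to 314 TPM. HK1, the constitutive hexokinase, made up 74.0% to 97.7% of HK1 and HK2 together. HK2, the inducible hexokinase, stayed between 4.53 and 10.2 TPM in 5 libraries and was at 37.9 TPM in T0 replicate 3. That library set its direction, since the log2 fold change of -0.66 became 0.75 without it.

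Of the phosphofructokinase genes, which encode the committed step, the liver form PFKL held 54.6% to 80.5% of the summed TPM. The platelet form PFKP held 14.5% to 37.1% and the muscle form PFKM 4.96% to 22.1%. PFKFB3 and PFKFB4, whose products make and degrade the activator of phosphofructokinase, had 9.94 to 29.3 and 2.49 to 21.8 TPM. Their log2 fold changes were -0.38 and -0.88, neither past the threshold (adjusted p 0.810 and 0.694). That of PFKFB4 became -1.73 when T16 replicate 2 was dropped and -0.34 when T0 replicate 1 was. ALDOC, the brain aldolase, had 32.0 to 58.0 TPM at T0 and 3.75, 65.9 and 4.96 TPM at T16. T16 replicate 2 decided its value, as the log2 fold change was -0.70 with all libraries, -3.06 without this one (edgeR adjusted p 0.091) and -3.16 without both oocyte-poor libraries.

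SLC2A1 and SLC2A3 encode the glucose transporters GLUT1 and GLUT3. SLC2A1 ranged from 136 to 241 TPM at T0 and from 58.6 to 285 TPM at T16, with a log2 fold change of 0.33 (interval -1.20 to 1.87). SLC2A3 ranged from 53.5 to 194 TPM at T0 and from 26.3 to 74.0 TPM at T16, with a log2 fold change of -1.02 (interval -2.27 to 0.23) that ran from -1.48 to -0.46 with 1 library left out. Neither transporter separated the groups. SLC2A1 exceeded SLC2A3 in all libraries but T0 replicate 3, where it stood at 0.70 times its TPM.

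**Figure D3:**
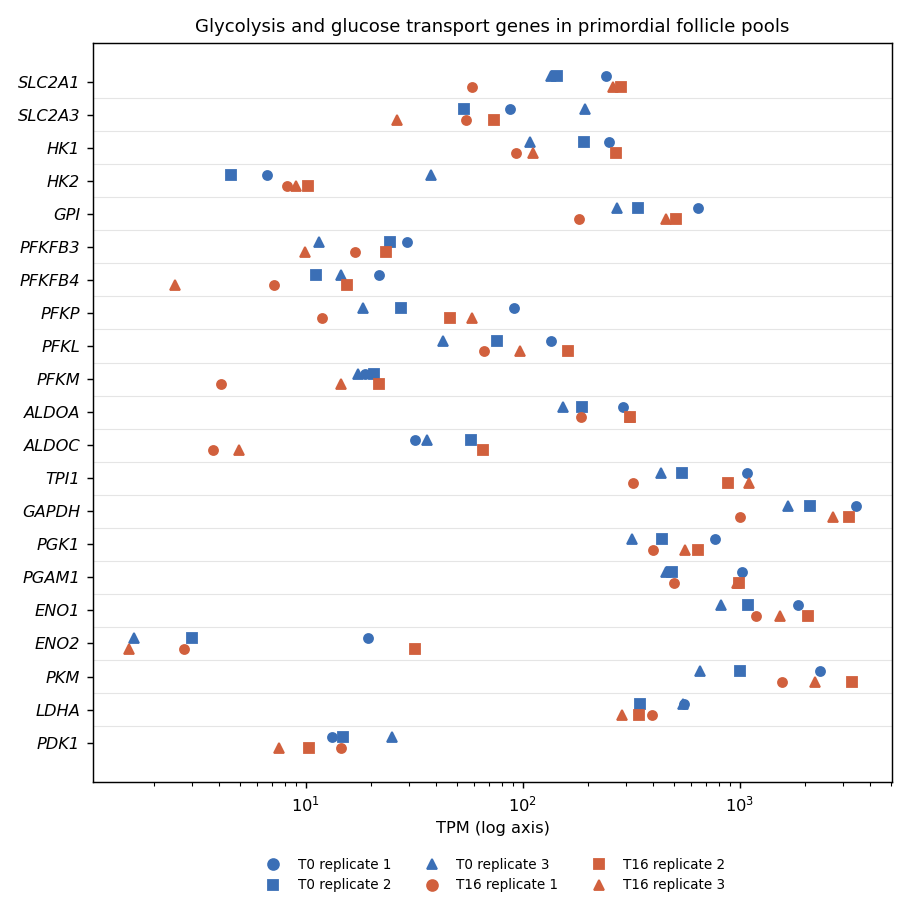
TPM (x axis, log axis) of the 21 glycolysis and glucose transport genes (y axis) in each library, with blue for T0, red for T16 and the marker shape for the replicate number. For each gene the T0 and T16 points overlap; T0 replicate 1 is often the highest blue point and T16 replicate 1 often the lowest red point, as for GAPDH.

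Within each group the glycolysis genes largely shared a lowest library, and at T0 they also largely shared a highest one. T0 replicate 1 was the highest T0 library in 17 of 21 glycolysis genes (81.0%, against 44.3% of all tested genes), and T0 replicate 3 was the lowest in 16 (76.2%, against 41.5%). At T16, replicate 1 was the lowest library in 15 of 21 (71.4%, against 38.3%). The highest T16 library was not shared. It was replicate 2 in 10 genes (47.6%, against 33.1%) and replicate 3 in 9 (42.9%, against 29.2%). The genes are not independent replicates, and these shares describe the 6 libraries only. The median within-group SD of log2 CPM over the 21 genes was 0.80 at T0 and 0.69 at T16, beside 0.50 and 0.61 over all tested genes.

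Summed over the 21 genes, glycolysis reached 12958, 7191 and 5979 TPM at T0 and 6102, 13238 and 10782 TPM at T16. The highest sums were those of T0 replicate 1 and T16 replicate 2, the same libraries that held most pregranulosa marker RNA (9412 and 8516 TPM) and least oocyte marker RNA. The lowest were those of T0 replicate 3 and T16 replicate 1, which held least pregranulosa marker RNA (982 and 1054 TPM) and most oocyte marker RNA (2724 and 2000 TPM). Both sums had the same order within each group but not across all 6 libraries. T16 replicate 3 had 10782 TPM of glycolysis with 3075 TPM of pregranulosa markers, while T0 replicate 2 had 7191 TPM with 3500 TPM. These are sums, and single markers differed. T0 replicate 1 was the highest T0 library in 5 of 11 pregranulosa markers (45.5%, against 44.3% of all tested genes). T16 replicate 2 was the highest T16 library in 8 of 11 (72.7%, against 33.1%). The part of the cell mixture in the glycolysis levels was not tested. With the oocyte marker level as a covariate, an alternative added after the values were seen, 0 glycolysis genes passed the threshold. Of all 14639 tested genes 81 passed in that fit, so 0 of 21 is near that low share.

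**Figure D4:**
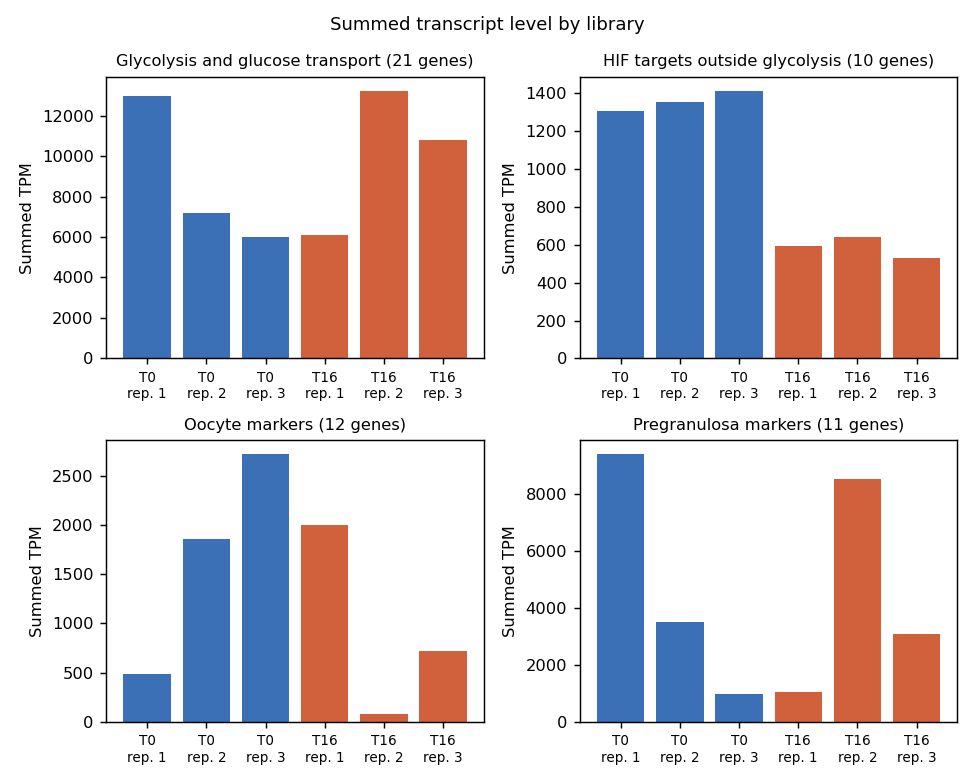
Summed TPM (y axis, from 0) in each of the 6 libraries (x axis, blue T0, red T16) of the 21 glycolysis genes, the 10 HIF targets outside glycolysis, the 12 oocyte markers and the 11 pregranulosa markers; each bar is 1 library. Glycolysis is high in T0 replicate 1 and T16 replicate 2, as are the pregranulosa markers, whereas the HIF targets are at 1305 to 1415 TPM in the T0 and 530 to 641 TPM in the T16 libraries.

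LDHA and PDK1 act where pyruvate leaves glycolysis. LDHA, the lactate dehydrogenase subunit under HIF control, had 553, 346 and 551 TPM at T0 and 396, 344 and 287 TPM at T16. T0 replicate 2 lay among the T16 pools in TPM, while in CPM, at 351, it lay below all of them (420, 377 and 386). The log2 fold change was -0.41 (interval -1.23 to 0.40). LDHA stood at 0.53 to 1.72 times the TPM of LDHB. Its T16 pools were close in CPM, with a 1.12-fold range, and further apart in TPM. PDK1, a kinase that switches off pyruvate dehydrogenase, had 13.2, 14.8 and 25.1 TPM at T0 and 14.6, 10.4 and 7.55 TPM at T16, with a log2 fold change of -0.60 (interval -1.52 to 0.32).

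Beside the members, 28 other genes of glycolysis and pyruvate handling were tested, of 32 listed. In edgeR 0 of these passed the threshold, with 4 higher and 1 lower at an unadjusted p below 0.05, while DESeq2 called 3 higher and 1 lower. Of all 14639 tested genes DESeq2 called 594 higher and 433 lower. In CPM 4 of the 28 genes lay above and 4 below without overlap, 14.3% each. Of all tested genes 13.2% lay above and 10.6% below, so these shares are near the background. PDK4, the pyruvate dehydrogenase kinase induced by fasting and fatty acids, had 25.2, 34.7 and 84.0 TPM at T0 and 2.67, 5.76 and 2.55 TPM at T16. The groups were far apart, with a log2 fold change of -3.57 (SE 0.57, 95% interval -4.91 to -2.24), an adjusted p of 0.087 in edgeR and 2.1e-07 in DESeq2. Without the oocyte-poor libraries it was -4.25 (adjusted p 0.0997).

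PDP1, the phosphatase that switches pyruvate dehydrogenase back on, lay the other way. It had 11.02, 9.74 and 14.9 TPM at T0 and 122.6, 55.8 and 31.5 TPM at T16. Every T16 pool was above every T0 pool, with a log2 fold change of 2.62 (SE 0.49, 95% interval 1.48 to 3.76), an adjusted p of 0.097 in edgeR and 1.5e-04 in DESeq2. The kinase and the phosphatase that oppose each other on the same enzyme therefore lay on opposite sides, each called by DESeq2 and neither by edgeR. SLC16A1, the lactate and pyruvate carrier MCT1, was chosen after its values were seen. It had 51.0, 27.2 and 36.1 TPM at T0 and 150.8, 80.0 and 87.3 TPM at T16. Its log2 fold change was 1.53 (SE 0.42, adjusted p 0.164 in edgeR and 0.027 in DESeq2), or 2.12 without the oocyte-poor libraries. SLC16A3, of the same carrier family, lay the other way, with every T16 pool below every T0 pool in TPM.

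**Figure D5:**
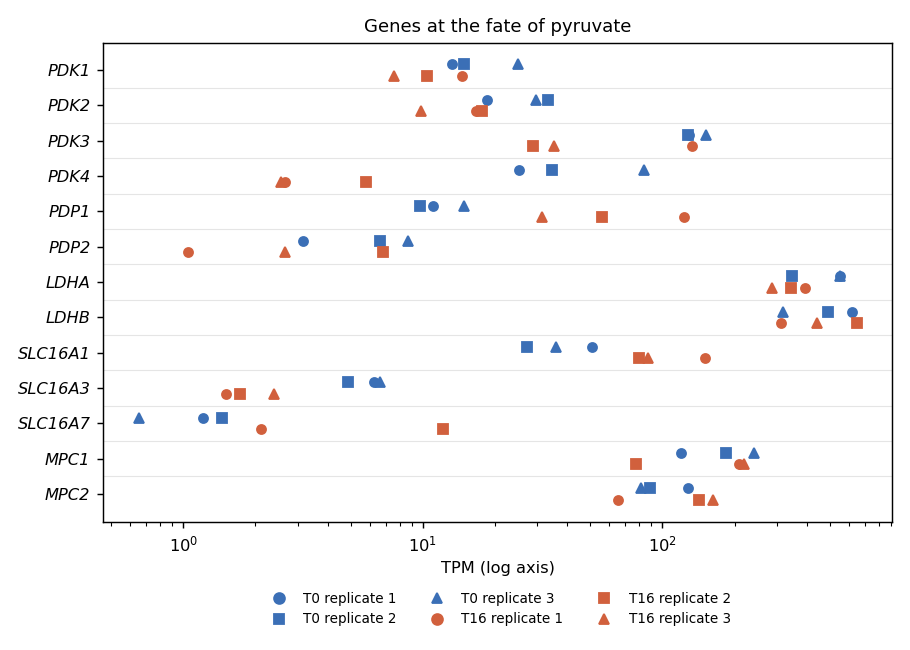
TPM (x axis, log axis) of the members LDHA and PDK1 and of other genes of pyruvate and lactate handling (y axis) in each library, with blue for T0, red for T16 and the marker shape for the replicate number. PDK2, PDK4 and SLC16A3 show all red points left of all blue points, PDP1 and SLC16A1 all red points right of them; SLC16A7 in T16 replicate 3 is at 0 and not drawn.

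Downstream and parallel pathways were counted in the same way. Of 21 tested genes of the citric acid cycle and pyruvate dehydrogenase, 0 passed in edgeR or DESeq2 and 0 had an unadjusted edgeR p below 0.05. The lowest p-values were those of DLD, a subunit shared by mitochondrial dehydrogenase complexes, with a log2 fold change of 0.65 (adjusted p 0.411), and SUCLG2, a succinyl-CoA ligase subunit, with -0.56 (adjusted p 0.481). T0 replicate 1 was the highest T0 library in 20 of these 21 genes, as it was in most glycolysis genes. Of 7 genes of the pentose phosphate pathway, 0 passed in edgeR or DESeq2 and 1 had an unadjusted p below 0.05, RPE, the ribulose phosphate epimerase, with a log2 fold change of 0.94 (adjusted p 0.291). The summed TPM of this pathway was 1014, 1016 and 1011 at T0 and 727, 1006 and 925 at T16. The T0 pools were alike in this sum, unlike in the glycolysis sum, while the T16 pools had the same order in both sums. Gene by gene the T0 pools were not alike. The median SD of log2 CPM at T0 was 0.565 over the 7 genes, beside 0.503 over all tested genes.

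Among 37 other tested genes of the HIF pathway, of 40 listed, 0 passed in edgeR, and 3 were higher and 2 lower at an unadjusted p below 0.05. DESeq2 called 1 higher and 1 lower, beside 594 higher and 433 lower of all 14639 tested genes. CXCR4, a chemokine receptor gene, had 12.3, 22.8 and 47.1 TPM at T0 and 89.0, 143.2 and 49.2 TPM at T16, with a log2 fold change of 1.90 (adjusted p 0.180 in edgeR and 0.045 in DESeq2), or 1.19 without the oocyte-poor libraries. INSIG2, a sterol-sensing regulator, had 27.9, 27.2 and 25.1 TPM at T0 and 7.70, 10.4 and 10.98 TPM at T16, with a log2 fold change of -1.34 (adjusted p 0.189 in edgeR and 0.016 in DESeq2). In both genes the T16 pools did not overlap with the T0 pools, in opposite directions, though CXCR4 in T0 replicate 3 came close to T16 replicate 3. For this longer list 4 genes lay above and 4 below without overlap, 10.8% each, which is close to the shares of all tested genes.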

How the data were processed

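RNA of 6 PMF pools (3 T0, 3 T16) was amplified with a SMART-Seq kit and sequenced. Per the labels, Trim Galore and Salmon were used, and by the study's methods the reference was ARS-UCD1.3. The authors deposited Salmon's estimated counts and TPM per RefSeq transcript, 1 table for each pool. The other deposited columns give transcript lengths. Here both were summed to gene symbols with the symbols RefSeq gives for ARS-UCD2.0, which matched 50205 of 76123 transcripts, and counts were rounded. No coordinates were used.

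T16 was compared with T0 in edgeR 4.0.16 (R 4.3.3) with TMM and the quasi-likelihood test, keeping the 14639 genes that reached 10 counts in 3 or more libraries, with Benjamini-Hochberg adjustment over all of them at 0.05. SE is the log2 fold change divided by the square root of F, and the 95% intervals use its t distribution. DESeq2 1.42.0 and limma 3.58.1 on log2(TPM + 1) were alternatives. Counting floors of 3 counts cover counting error only. The members and lists were chosen with earlier results of these data known. Named outside the members were, per list, the genes past the threshold or else those with the 2 lowest unadjusted p-values. A result that this rule would name is not reported here.

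The fits were tested on simulated T16 against T0 data of 14028 genes. Of 67 true 4-fold changes edgeR recovered 6, of 66 true 16-fold changes 38, and of 65 true 64-fold changes 55, beside 5 false calls. DESeq2 recovered 32, 53 and 63, beside 100 false calls. The sources do not say whether the replicate numbers pair the pools, and the main test did not treat them as pairs.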

Additional observations from a re-analysis of the deposited data

How the results depend on the processing

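The count of called genes, 6 in edgeR, became 1027 with DESeq2, 103 with limma on log2(TPM + 1), 11 with no count filter, 81 with the oocyte marker covariate, 0 without T0 replicate 1 and T16 replicate 2 together, and 0 to 3 with 1 library left out. With the replicate number as a block it was 0, with and without transcript length offsets. Same-numbered pools deviated from their group means with correlations of -0.54, -0.13 and -0.05. For pools of different number the correlations ran from -0.49 to 0.51. These values cannot show whether pools share animals, since the pools also differed in their cell marker levels. The members called were 2 with DESeq2 and 1 with limma, and 0 under every other setting. The median over all genes moved from -0.08 to -0.23 with no count filter, -0.19 with limma and -0.25 with the block and offsets. The low power of edgeR at 4-fold limits what 0 calls can show. The 100 false calls of DESeq2 in the simulated data likewise limit what a call by DESeq2 alone can show.

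BNIP3L, ADM, BNIP3, MXI1, ANKRD37 and KDM3A were among 19 members whose direction held in every setting that gave a value (16 settings, or 12 for EGLN3, also among them); the other 16 turned in at least 1. GAPDH (0.03) gave -0.0134 with DESeq2 or its size factors, -0.011 with no count filter, -0.0093 with length offsets, -0.0278 with a stricter filter, -0.16 with limma, -0.074 with the replicate block and offsets, and -0.45 with the covariate. Under the replicate block GPI gave 0.0242 and PFKP 0.17, and with offsets PFKP gave 0.0658. SLC2A1 gave -0.0347 with limma. The covariate, added after the values were seen, turned SLC2A1 (-0.25), PFKL (-0.0391), TPI1 (-0.0813), PGK1 (-0.12), ENO2 (-1.05), HIF1A (-0.12), EPAS1 (0.23) and CA9 (0.084). Leaving out both oocyte-poor libraries turned GPI (0.39), PFKP (0.97) and EPAS1 (0.0681). The same setting gave 0.61 for HIF1A, 0.30 for GAPDH, 0.79 for ENO1, -0.17 for LDHA and 1.29 for VEGFA. The cause was not tested.

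When each library was dropped in turn, log2 fold changes ran from -0.0417 to 0.78 for SLC2A1, -0.70 to 0.27 for HK1, -1.28 to 0.75 for HK2, -0.32 to 0.56 for GPI, -0.73 to 0.0323 for PFKFB3, -0.75 to 1.03 for PFKP, -0.78 to 0.0079 for PFKM, -0.23 to 0.92 for TPI1, -0.24 to 0.52 for GAPDH, -0.14 to 0.71 for PGK1, -1.92 to 2.52 for ENO2, -0.22 to 1.07 for HIF1A, -0.70 to 0.20 for EPAS1 and -0.58 to 0.16 for EGLN1. The log2 difference of the summed HIF targets outside glycolysis, -1.21 in TPM, was -0.85 in CPM.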

Other observations

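PCK1, which encodes the cytosolic enzyme that makes phosphoenolpyruvate for gluconeogenesis, was chosen after its values were seen. It had 0 counts in each T0 library and 15, 22 and 63 counts in the T16 libraries, or 0.37, 0.62 and 1.04 TPM, so it was detected at a low level in the T16 pools.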
